A study of Mus musculus with 18 samples.

Results

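Receptors, G protein subunits, adenylyl cyclases and a G protein regulator of the adrenergic and angiotensin pathways were described in mouse hearts before and after pressure overload. The genes were Adrb1, Adra1a, Adra1b, Agtr1a, Gnas, Gnb3, Adcy5, Adcy6 and Rgs2, and their probe sets were those that the platform annotation gives 1 gene symbol. That rule found 17 probe sets for 7 of the 9 genes, among 45265 probe sets on both chips, whose single symbols name 18194 genes. No probe set carried the symbol Adrb1 or Adra1a alone, so the β1 receptor and the α1A receptor were not analysed here. Of the 17 probe sets, 14 were among the 27083 that passed the filter on low signals and were tested.

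A G protein-coupled receptor passes its signal on through a G protein made of an α subunit and a β and γ pair. In heart muscle, β-adrenergic receptors act mostly through the stimulatory α subunit, which activates adenylyl cyclase to make cyclic AMP, and cyclic AMP drives protein kinase A. α1-adrenergic and angiotensin II type 1 receptors act mostly through α subunits of the Gq family, which activate phospholipase C. RGS proteins end the signal by speeding the hydrolysis of GTP on the α subunit.

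The study measured RNA of 9 hearts from male mice, each on Affymetrix chips 430A and 430B, so that there were 18 arrays. In all 3 groups the mice carried Tet-myrAkt1, a tetracycline-regulated transgene for an activated form of the kinase Akt1, with the driver αMHC-tTA, whose promoter is active in heart muscle cells. The 3 hearts labelled control were taken before AAC, the operation that overloads the heart, at an age label of 8 weeks. The 3 hearts labelled 4wkpost were taken 4 weeks after AAC, and the 3 labelled 3wkAkt/6wkpost were taken 6 weeks after AAC with the Akt transgene on, both with an age label of 12 weeks. The titles give 3 weeks of Akt activation and the descriptions 2 weeks, and 4-week replicate 3 has the number 1 in its description. Time and age move with AAC, 2 further weeks move with Akt, and no heart without the transgenes was included, so these cannot be told apart. Pooling of RNA and the use of separate animals are not stated in the labels, and p-values measure the spread between these samples. Below, the groups are called hearts before AAC, 4-week hearts and Akt-on hearts.

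The Akt1 probe set 1425711_a_at, which checks the labels, gave signals of 2614, 3762 and 6535 in Akt-on hearts against 571, 821 and 917 in 4-week hearts (2.36 on the log2 scale, limma adjusted p 0.00312). The other Akt1 probe sets, 1416657_at and 1440950_at, did not pass (0.0076 and -0.018). 4 hearts, control replicates 2 and 3, 4-week replicate 1 and Akt-on replicate 1, held high atrial transcripts: the summed signal of 6 atrial genes ran over 4901 to 93742 in hearts before AAC, 5724 to 70548 in 4-week hearts and 6392 to 70489 in Akt-on hearts. The ratio of 3′ to 5′ β-actin signal was 1.49 to 2.04 in hearts before AAC, 1.14 to 1.21 in 4-week hearts and 1.04 to 1.22 in Akt-on hearts, so that RNA quality by this measure moved with each comparison against hearts before AAC. Its part in those results was not tested. In bulk hearts, fewer cells of a type and less RNA per cell cannot be told apart.

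The 5′ flanks of 2 of the genes that passed a test are shown, because Rgs2 carries matches to the motif of the cyclic AMP response factors while the 2 starts of Adra1b do not. They are the 250 bases upstream of the start in RefSeq on build GRCm38.p6. Both genes lie on the minus strand and each sequence is written 5′ to 3′ on that strand. Capitals mark CGTCA, the core of the cyclic AMP response element, searched on both strands, where TGACG is the same site on the other strand.
Rgs2, chr1:144004150-144004399: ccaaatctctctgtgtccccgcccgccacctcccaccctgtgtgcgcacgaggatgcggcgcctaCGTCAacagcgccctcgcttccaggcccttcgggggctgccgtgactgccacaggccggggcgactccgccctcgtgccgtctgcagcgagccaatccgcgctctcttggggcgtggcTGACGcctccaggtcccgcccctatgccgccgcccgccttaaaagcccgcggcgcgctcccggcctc
Adra1b start 1, chr11:43901238-43901487: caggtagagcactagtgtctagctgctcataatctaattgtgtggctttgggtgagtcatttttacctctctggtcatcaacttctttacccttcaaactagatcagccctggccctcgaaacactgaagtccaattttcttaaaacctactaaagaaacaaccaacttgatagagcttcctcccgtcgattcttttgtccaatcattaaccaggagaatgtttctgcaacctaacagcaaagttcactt
Adra1b start 2, chr11:43836490-43836739: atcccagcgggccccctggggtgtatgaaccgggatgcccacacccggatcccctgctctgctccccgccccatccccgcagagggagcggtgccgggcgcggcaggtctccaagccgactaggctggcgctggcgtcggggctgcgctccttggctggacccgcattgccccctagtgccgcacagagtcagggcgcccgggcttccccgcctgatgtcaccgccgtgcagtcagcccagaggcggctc
The Rgs2 window had this core 185 and 67 bases upstream of the start and a GC content of 72.4%. The Adra1b windows had a GC content of 41.6% at start 1 and 72.8% at start 2, and held no match to the core, the full element TGACGTCA, which contains it, the FOXO motif GTAAACA or TATAAA. Among the 32851 promoter windows of the same length, 17.8% held the core, 1.55% the full element, 3.17% the FOXO motif and 12.4% TATAAA. A match is a description of letters and no match says nothing of a factor. Promoters were found in that table for 4 of the 7 measured genes, with 8 starts in all. Gnas, which had no probe set that passed a test, also held the core at starts 1, 3 and 4, and Adcy5 did not hold it. The Rgs2 window did not hold the full element.

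Signals are the deposited MAS5 values on a linear scale, scaled to a common level within each chip, and a signal of one probe set cannot be set against that of another. Differences are on the scale of log2(signal + 32) and understate the change of dim probe sets. A probe set rose or fell when limma gave an adjusted p under 0.05 (Benjamini-Hochberg over both chips). Groups that do not overlap have all 3 hearts of one on the same side of all 3 of the other.

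In 4-week hearts, Agtr1a rose and 1 Rgs2 probe set fell relative to hearts before AAC. That is 1 higher and 1 lower of 14 probe sets, where 4.43% of all probe sets tested passed in either direction, 2.75% higher and 1.68% lower. The groups did not overlap for 7 of the 14, against 29.3% of all probe sets. The median log2 difference was -0.28 over the 14 and -0.04 over all probe sets.

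Between Akt-on and 4-week hearts, 1 of 14 probe sets passed and it was lower in Akt-on hearts, that of Gnb3, where 2.54% of all probe sets passed, 1.08% higher and 1.46% lower. The groups did not overlap for 5 of the 14, against 20.6% of all. The medians were 0.01 over the 14 and 0.02 over all.

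Between Akt-on hearts and hearts before AAC, Adra1b rose and Adcy6 and 2 Rgs2 probe sets fell, 4 of 14, where 13.4% of all probe sets passed, 6.86% higher and 6.51% lower. The groups did not overlap for 7 of the 14, against 32.1% of all. The medians were -0.32 over the 14 and -0.01 over all. Each group enters 2 of the 3 comparisons, so these counts are not independent of each other. The 14 probe sets come from 7 genes, with 4 from Rgs2 and 3 each from Gnas and Adcy5. Probe sets of 1 gene are not independent members of these counts and medians.

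**Figure D1:**
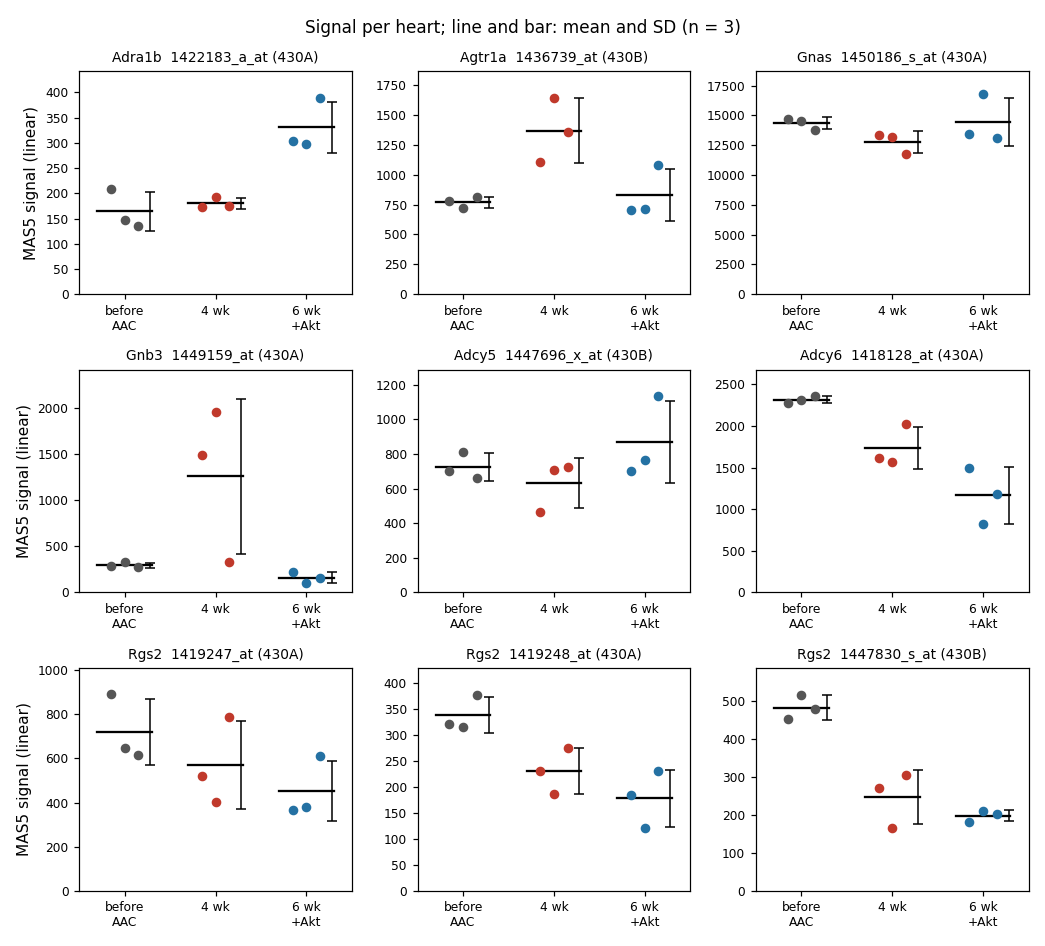
MAS5 signal (linear scale) in each heart for 9 probe sets of the 7 genes, with hearts before AAC in grey, 4-week hearts in red and Akt-on hearts in blue. Lines and bars give the mean and SD of 3 hearts. Adra1b lay at 299 to 389 in Akt-on hearts and at 172 to 193 in 4-week hearts, and Gnb3 was spread from 329 to 1952 within 4-week hearts.

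Adra1b encodes the α1B-adrenergic receptor, which binds noradrenaline and adrenaline and couples to Gq. Its single probe set, 1422183_a_at, gave 209, 147 and 136 in hearts before AAC, 172, 193 and 176 in 4-week hearts, and 305, 299 and 389 in Akt-on hearts. Every Akt-on heart lay above every heart of the other groups, while the earlier groups overlapped. Akt-on hearts averaged 331 ± 50.5 and hearts before AAC 164 ± 39.3 (SD, n = 3 each). This difference was 0.90 ± 0.19 on the log2 scale (SE), 1.86-fold, with an adjusted p of 0.00958 by limma. It passed with each single heart left out, with adjusted p up to 0.0458.

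Against 4-week hearts, which averaged 180.3 ± 11.3, Adra1b was 0.77 ± 0.19 higher on the log2 scale in Akt-on hearts, 1.70-fold, and limma's adjusted p was 0.0532. It therefore did not pass, although the groups did not overlap. It passed with a pseudocount of 64 (0.0491), with adjustment within each chip (0.0363), with 1 probe set per gene (0.0415), with the atrial score as a covariate (0.0462) and without control replicate 1 (0.0486). Between 4-week hearts and hearts before AAC the difference was 0.13, with a 95% interval of -0.27 to 0.54 and an adjusted p of 0.736 by limma. With the 4 atrium-rich hearts left out, the difference of Akt-on hearts from the remaining heart before AAC was 0.63 and limma's adjusted p 0.265.

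Agtr1a encodes the angiotensin II type 1a receptor, the main receptor by which angiotensin II raises blood pressure and acts on the heart in mice. The signals of 1436739_at were 776, 720.1 and 812 in hearts before AAC, 1106, 1646 and 1357.5 in 4-week hearts, and 704, 709.5 and 1083 in Akt-on hearts. All 4-week hearts lay above all other hearts, and 2 of the Akt-on hearts lay below all hearts before AAC. The 4-week mean was 1370 ± 270.1 and that before AAC 769 ± 46.3 (SD, n = 3 each).

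Agtr1a was 0.79 ± 0.19 higher on the log2 scale in 4-week hearts than before AAC, 1.73-fold, with an adjusted p of 0.0354 by limma. Leaving out any 1 of 5 hearts ended this call: control replicate 1, 2 or 3 (limma adjusted p 0.0894, 0.116 and 0.0941) or 4-week replicate 2 or 3 (0.134 and 0.0666). It also ended with no filter on low signals (0.0603), quantile normalization (0.0546), eBayes without a trend (0.0705) and the replicate block (0.0542). Further settings that ended it were adjustment within each chip (0.0993), 4-week replicates 1 and 3 averaged (0.0524) and the atrial covariate (0.0545). The call was also lost with the 4 atrium-rich hearts left out, where the difference from the remaining heart before AAC was 0.92. Fibroblasts, smooth muscle cells and pericytes can carry this receptor. The summed signal of 7 fibroblast genes was 25682 to 39835 in 4-week hearts against 34234 to 38810 before AAC. That of 7 smooth muscle and pericyte genes was 13463 to 17007 against 17474 to 19216. Rgs5 gave more of the latter sum than any other gene, at 6484 to 9831 against 10216 to 11669. By limma 0 of the 7 genes of either list passed between these groups. Their part in the Agtr1a result was not tested.

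In Akt-on hearts Agtr1a averaged 832 ± 217, a log2 difference of -0.71 from 4-week hearts that did not pass (limma adjusted p 0.0674). Without Akt-on replicate 3, the highest of its group, the difference was -0.91 and limma's adjusted p 0.0284. Against hearts before AAC the difference was 0.08, with a 95% interval of -0.32 to 0.49.

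Gnas encodes the stimulatory α subunit, and its locus also makes imprinted transcripts that start further upstream. It had 5 probe sets, of which 3 passed the filter. Its brightest, 1450186_s_at, gave 14717, 14556 and 13781 in hearts before AAC, 13351, 13211 and 11727 in 4-week hearts, and 13456, 16760.1 and 13089 in Akt-on hearts. The 4-week hearts lay below all hearts before AAC by a small margin, and the Akt-on hearts overlapped both.

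None of the 3 tested Gnas probe sets passed limma's test in any comparison, and 1 of the 9 unadjusted p-values was under 0.05. For 1450186_s_at the log2 differences were -0.17 for 4-week hearts against hearts before AAC, 0.17 for Akt-on against 4-week hearts and 0.00 for Akt-on hearts against hearts before AAC, the last with a 95% interval of -0.24 to 0.24. The dimmer 1453413_at gave 127, 114 and 116 in 4-week hearts against 239, 161 and 144 before AAC, a log2 difference of -0.47 (limma adjusted p 0.222). The third, 1443375_at, differed by -0.72 between the same groups (limma adjusted p 0.252). The 3 correlated across the 9 hearts with Pearson's r of 0.22 to 0.42, given as a description. The other 2 lay below the filter, 1421740_at at 5.7 to 48.1 and 1427789_s_at at 4.0 to 16.

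Gnb3 encodes the β3 subunit of G proteins, known for its part in the retina's cone cells, and a variant of the human gene has been studied in hypertension. The signals of 1449159_at were 286, 325 and 276 in hearts before AAC, 1489.5, 1952 and 329 in 4-week hearts, and 219, 97.5 and 161 in Akt-on hearts. Of the 4-week hearts, 2 stood far above the rest and replicate 3 lay just above the hearts before AAC. All 3 groups lay apart from each other.

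Gnb3 averaged 159 ± 60.9 in Akt-on hearts and 1257 ± 836 in 4-week hearts (SD, n = 3 each). The log2 difference was -2.48 ± 0.49 (SE), with a 95% interval of -3.54 to -1.42, 5.58-fold lower, and an adjusted p of 0.0229 by limma. The call was lost without 4-week replicate 1 (-2.20, limma adjusted p 0.0646) or 2 (-2.01, 0.0689), and without Akt-on replicate 2 (-2.22, 0.0837) or 3 (-2.51, 0.059). Without 4-week replicate 3, the lowest of its group, the difference was -3.23 and passed. The call was also lost with no filter (0.0529), with only the 6 hearts compared (0.07) and without the 4 atrium-rich hearts (-2.42, 0.191). In 4-week hearts against hearts before AAC the log2 difference was 1.65 ± 0.49, 3.15-fold, with an adjusted p of 0.0743 by limma. Without 4-week replicate 3 it was 2.41 and limma's adjusted p 0.0025, and it also passed with 4-week replicates 1 and 3 averaged (0.0344), adjustment within each chip (0.0467) and the atrial covariate (0.0395). Against hearts before AAC, which averaged 296 ± 26.0, Akt-on hearts differed by -0.83 on the log2 scale and did not pass (limma adjusted p 0.300). That comparison passed without 4-week replicate 3 (limma adjusted p 0.0351), a heart that enters it only through the shared estimate of spread.

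Adcy5 and Adcy6 encode the adenylyl cyclases that make most of the cyclic AMP of heart muscle cells, and both are inhibited by calcium. Adcy6 was measured by 1418128_at. It gave 2277, 2306 and 2357 in hearts before AAC, 1616, 1562 and 2021 in 4-week hearts, and 1492, 817 and 1187 in Akt-on hearts. The 3 groups did not overlap, with hearts before AAC highest, 4-week hearts between and Akt-on hearts lowest.

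Adcy6 averaged 1165 ± 338 in Akt-on hearts against 2313 ± 40.1 in hearts before AAC (SD, n = 3 each). It was 2.02-fold lower, a log2 difference of -1.01 ± 0.19 (SE) with an adjusted p of 0.00607 by limma, and it passed with each single heart left out, with adjusted p up to 0.0296. Neither comparison with 4-week hearts passed. The log2 difference was -0.42 for 4-week hearts, at 1733 ± 251, against hearts before AAC (limma adjusted p 0.223), and -0.59 for Akt-on against 4-week hearts (0.130). Without Akt-on replicate 1 the last was -0.79 with an adjusted p of 0.0429 by limma. The summed signal of the heart muscle cell markers was also lower, at 104909 to 125475 in Akt-on hearts against 133533 to 148166 before AAC, and its part in the result was not tested. Without the 4 atrium-rich hearts the difference from the remaining heart before AAC was -1.18 (limma adjusted p 0.095).

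Adcy5 had 4 probe sets, all on chip 430B, and 3 passed the filter. None passed limma's test in any comparison, and 0 of the 9 unadjusted p-values were under 0.05. The signals of 1447696_x_at were 699.7, 814 and 659 in hearts before AAC, 464, 706 and 726 in 4-week hearts, and 703, 768 and 1137 in Akt-on hearts. The groups overlapped in each comparison, and the log2 differences were -0.21 for 4-week hearts against hearts before AAC, 0.44 for Akt-on against 4-week hearts and 0.23 for Akt-on hearts against hearts before AAC. The second, 1455296_at, gave -0.17, -0.12 and -0.30 for the same comparisons, and the third, 1443080_at, with signals of 18.2 to 82.0 over all hearts, gave -0.47, 0.14 and -0.34. For Akt-on hearts against hearts before AAC, 2 of the 3 lay below 0 and the first above. The 3 correlated across hearts with r of -0.28 to 0.56. The fourth, 1439829_at, lay below the filter at 8.5 to 70.8.

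Rgs2 encodes a regulator that ends signalling mainly through Gq and also dampens adenylyl cyclase. It had 4 probe sets. On 1447830_s_at the signals were 450.3, 515 and 477 in hearts before AAC, 271, 166 and 303 in 4-week hearts, and 181, 209.7 and 202 in Akt-on hearts. Hearts before AAC lay above all others, and the later groups overlapped. This probe set fell by 1.16 on the log2 scale (2.24-fold) in Akt-on hearts relative to hearts before AAC (limma adjusted p 0.00302), and it passed with each single heart left out, with adjusted p up to 0.0163.

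In 4-week hearts the same probe set was 0.91 below hearts before AAC on the log2 scale (-0.91 ± 0.19, 1.88-fold, limma adjusted p 0.0250). That call was lost without control replicate 1, 2 or 3 (limma adjusted p 0.0584, 0.0911 and 0.084) and without 4-week replicate 1 or 2 (0.053 and 0.0824), and with adjustment within each chip (0.0759). Between Akt-on and 4-week hearts it differed by -0.25 (limma adjusted p 0.560).

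The second Rgs2 probe set, 1419248_at, gave 184, 121 and 229.8 in Akt-on hearts against 322, 316 and 378 in hearts before AAC, a log2 difference of -0.85 ± 0.21 (1.80-fold, limma adjusted p 0.0221). It lost the call without control replicate 1, 2 or 3 (limma adjusted p 0.0513, 0.0541 and 0.0906) and without Akt-on replicate 2 (0.0713). Without the 4 atrium-rich hearts, no Rgs2 probe set named as passing kept its call (-1.02 for 1447830_s_at and -0.82 for 1419248_at in Akt-on hearts, limma adjusted p 0.162 and 0.309). The third, 1419247_at, gave 368, 380.0 and 611 in Akt-on hearts against 890.2, 648 and 616 before AAC and did not pass (-0.65, limma adjusted p 0.112). These 3 correlated with each other across the 9 hearts with r of 0.74 to 0.84. The fourth, 1443250_at, was dimmer, lay on the other side at 72.2, 167 and 106 in Akt-on hearts against 87.2, 10.6 and 33.5 before AAC (1.03, limma adjusted p 0.0862), and correlated with the other 3 with r of -0.45 to -0.77.

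**Figure D2:**
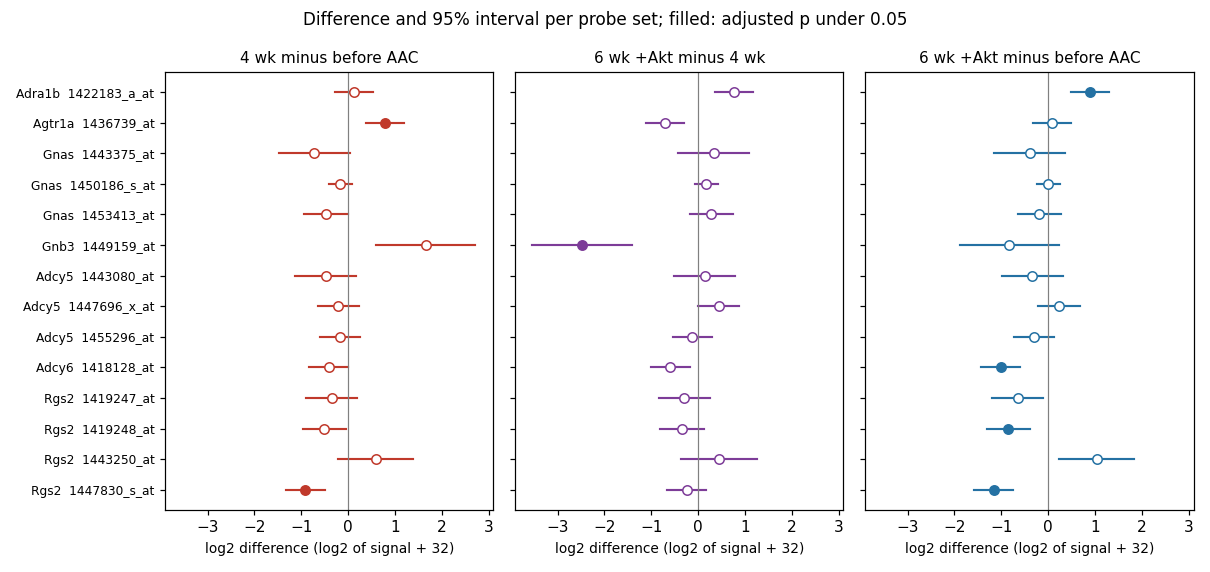
Log2 difference (log2 of signal + 32) with its 95% interval for the 14 tested probe sets, in 3 panels for 4-week against hearts before AAC, Akt-on against 4-week hearts and Akt-on hearts against hearts before AAC. Filled points had an adjusted p under 0.05. Gnb3 at -2.48 lies farthest from 0 in the middle panel, and 3 of the 4 Rgs2 probe sets lie below 0 in every panel.

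The patterns of the 4 genes with 1 probe set were also set against those of other genes on the same chip. These were all probe sets that passed the filter and had 1 gene symbol. Pearson's r over the 9 hearts serves as a description, since all probe sets share the same hearts and groups. Adra1b was most like Snrnp25 (0.983), Ero1a (0.971) and Mrps11 (0.967), Adcy6 was most like Tardbp (0.989), Poldip3 (0.988) and Spg7 (0.982), Gnb3 was most like Ptbp2 (0.955), Gpsm1 (0.927) and Rab2a (0.923), and Agtr1a was most like 5031425E22Rik (0.946), Ufl1 (0.932) and Nadk2 (0.931). The first 3 were compared with 12493 probe sets and Agtr1a with 9357.

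The rest of the pathway was taken from a list of 100 genes, of which 86 had a symbol on the chips and 71 passed the filter, each represented by its brightest probe set, taken from chip 430A where it had one there. In Akt-on hearts 5 of the 71 rose and 9 fell relative to hearts before AAC and 57 did not pass, 19.7% against 14.1% of all genes tested. The median log2 difference was -0.10 over the list and -0.00 over all genes. In 4-week hearts 2 rose and 1 fell relative to hearts before AAC, 4.23% against 4.5% of all genes. In Akt-on hearts 2 rose and 1 fell relative to 4-week hearts, 4.23% against 3.25%. Without the 4 atrium-rich hearts, 0 pathway genes passed limma's test in any comparison, with 5, 13 and 17 at an unadjusted p under 0.05 for 4-week hearts against hearts before AAC, Akt-on against 4-week hearts and Akt-on hearts against hearts before AAC.

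None of the 3 receptor-class genes tested (Ednrb, Agtrap and Adra2c) passed limma's test between Akt-on hearts and hearts before AAC, and 0 had an unadjusted p under 0.05. Of 21 G protein subunits, 1 rose and 2 fell, 14.3% against 14.1% of all genes. Gnb5, a β subunit that pairs with RGS proteins, gave 684, 819.9 and 784 in Akt-on hearts against 493, 383 and 419 before AAC (0.78, limma adjusted p 0.00907). Gna11, a Gq family α subunit, gave 1048, 841 and 1019 against 1459, 1555 and 1552 (-0.64, limma adjusted p 0.0113). The β subunit Gnb4 fell in 4-week hearts, at 534, 477 and 488 against 972, 1059 and 973 before AAC (-0.96, limma adjusted p 0.0422). Of its 3 probe sets only this 1 passed, and they ran from -0.96 to -0.52. The Gnb4 call held in 3 of the 9 fits that left out 1 heart.

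Of 6 other cyclases, 1 fell in Akt-on hearts relative to hearts before AAC, 16.7% against 14.1% of all genes. Adcy9 gave 705, 661 and 796 in Akt-on hearts against 1087, 1114 and 1176 before AAC (-0.62, limma adjusted p 0.0101). Its 4 probe sets ran from -0.62 to 0.17 and only this one passed.

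Of 15 regulators, 2 rose and 2 fell in Akt-on hearts relative to hearts before AAC, 26.7% against 14.1% of all genes. The receptor kinase Grk5, which phosphorylates activated receptors, gave 1108, 1116 and 1039.5 in Akt-on hearts against 651, 636 and 683 before AAC (0.70, limma adjusted p 0.00938), and both of its probe sets passed. The receptor kinase Grk3 passed on 3 of 3 probe sets (0.88 on the brightest, limma adjusted p 0.0201), and was lost without control replicate 1 or 3 or Akt-on replicate 3 (limma adjusted p 0.0744, 0.0675 and 0.0821). Grk3 also rose relative to 4-week hearts, with 700.2, 562 and 836 against 458, 379 and 244 (0.92, limma adjusted p 0.0474), which held in 1 of 9 fits that left out 1 heart.

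Rgs4 and Rgs5, which like Rgs2 speed GTP hydrolysis, fell in Akt-on hearts relative to hearts before AAC. Rgs4 gave 227, 223 and 249 against 539, 437 and 470.4 (-0.95, limma adjusted p 0.00619), and both of its probe sets passed. Rgs5 gave 6535, 7781 and 6793 against 11669, 10216 and 11174 (-0.65, limma adjusted p 0.0140), on 1 of 4 probe sets, and lost the call without control replicate 1 (0.0505) or 3 (0.0555) and with quantile normalization (0.0502). The smooth muscle and pericyte markers summed to 10340.3 to 12516 in Akt-on hearts against 17474 to 19216 before AAC. By limma 2 of the 7 passed, both lower. An unadjusted p under 0.05 by limma, in either direction, was found for 6, and the median log2 difference was -0.65. Rgs5 is on that list, is 1 of the 2, and gave more of each sum than any other gene. The sum is therefore not separate from the Rgs5 result. Cnn1 of the same list lay the other way, at 260 to 508 against 70.7 to 219. The part of these cells in the result was not tested.

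Of 26 downstream genes, 2 rose and 4 fell in Akt-on hearts relative to hearts before AAC, 23.1% against 14.1% of all genes. Popdc2, a membrane protein of heart muscle that binds cyclic AMP, gave 1779.9, 1979.7 and 2104 in Akt-on hearts, against 3244, 3654 and 4421 in 4-week hearts (-0.93, limma adjusted p 0.00495) and 4185, 3658 and 4284 before AAC (-1.04, limma adjusted p 0.0013). Crem, a cyclic AMP-responsive transcription factor, gave 263, 343 and 380.2 in Akt-on hearts against 160.0, 138 and 161 before AAC (0.95, limma adjusted p 0.0057), on 1 of 3 probe sets. Against 4-week hearts, at 169.6, 199 and 176, it rose by 0.75 (limma adjusted p 0.0470) in a call that held in 1 of 9 fits that left out 1 heart.

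Rapgef3, an exchange factor that cyclic AMP activates, gave 255, 290.4 and 188 in Akt-on hearts against 408, 408 and 911 before AAC (-1.05, limma adjusted p 0.0265), on 1 of 5 probe sets. Control replicate 3 stands apart, and without it the difference was -0.69 and limma's adjusted p 0.0811, while without Akt-on replicate 3 they were -0.90 and 0.0972, and with no filter limma's adjusted p was 0.0552. The summed signal of 6 endothelial markers was also lower, at 6042 to 6324 in Akt-on hearts against 9468 to 9976 before AAC. Of the 6, 3 passed by limma, all lower. Kdr gave more of each sum than any other gene, at 1626 to 1981 against 3738 to 4282. Pecam1 overlapped between these groups, at 870 to 970 against 831 to 1013. The part of these cells in the Rapgef3 result was not tested. Gnai1, Pde2a and Akap12 also fell and Prkar2a rose between these groups (limma adjusted p 0.0347, 0.0395, 0.0411 and 0.0400).

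Prkar1a and Prkar2a encode regulatory subunits that hold protein kinase A inactive until cyclic AMP binds, and both rose in 4-week hearts relative to hearts before AAC. Prkar1a gave 4812, 5004 and 4387 against 3184, 3018 and 2791 (0.65, limma adjusted p 0.0278), on 2 of 3 probe sets. Prkar2a gave 364, 469 and 245 against 129.9, 91.1 and 129 (1.37, limma adjusted p 0.0351), on 1 of 3 probe sets. Each call held in 4 of 9 fits that left out 1 heart.

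**Figure D3:**
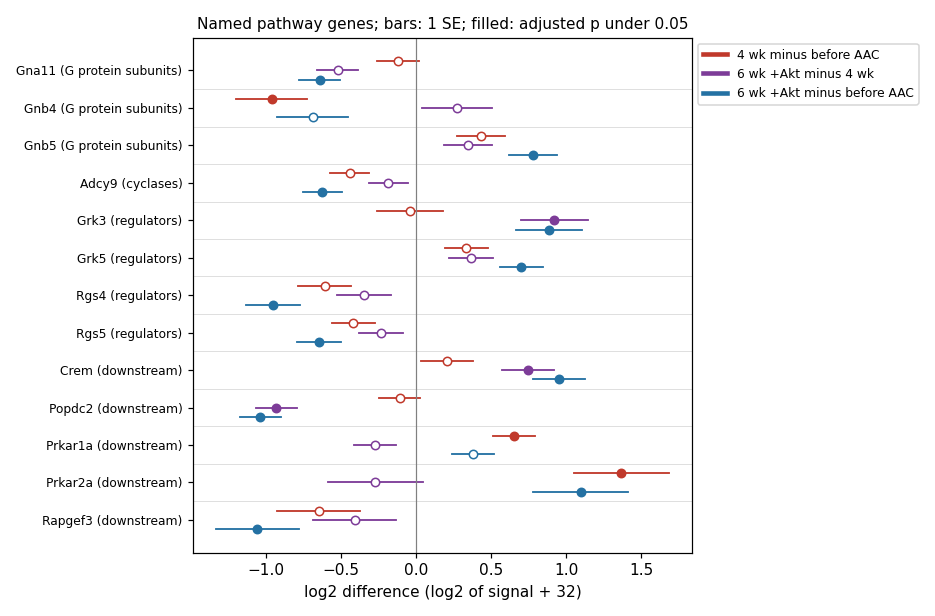
Log2 difference (log2 of signal + 32) with bars of 1 SE for 13 pathway genes chosen by rank of adjusted p, in 4-week against hearts before AAC (red), Akt-on against 4-week hearts (purple) and Akt-on hearts against hearts before AAC (blue). Filled points had an adjusted p under 0.05. Popdc2 lies at -1.04 and Crem at 0.95 for Akt-on hearts against hearts before AAC.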

How the data were processed

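RNA of 9 mouse hearts was measured on 18 arrays, chips 430A and 430B for each heart. The authors' deposited values are linear intensity per probe set, made with MAS5. That tool is named in the submitters' processing notes, with no version, and further settings are not given in the sources used here. The trimmed mean (2% off each end) of the deposited intensities was about 500.2 on each 430A array and 122.5 on each 430B array. Within each group and chip, no pair of arrays held identical values over the probe sets that passed the filter. Genes were named from the platform annotation, which can be old, for probe sets with 1 symbol.

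Each array was scaled to the common trimmed mean of its chip, 32 was added and log2 taken. Probe sets outside the 60% with the highest mean signal per chip were left out, as were Affymetrix controls. Group means were fitted over the 9 hearts with limma 3.58.1 in R 4.3.3 (lmFit, eBayes with a trend), with two-sided p-values adjusted by Benjamini-Hochberg over both chips. The number of arrays limits the precision. The procedure was tested on simulated data. Alternatives covered the pseudocount, filter, scaling, variance model, replicate block, probe set per gene and each heart left out. The use of an atrial score as a covariate, and the fit without the 4 hearts rich in atrial transcripts, were added after seeing the data. Named pathway genes are the first 10 per comparison by adjusted p among those that passed; Gnai1, Pde2a, Akap12 and Prkar2a fall outside that rule in Akt-on hearts against hearts before AAC. The members and lists were chosen with earlier results of these data known.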

Additional observations from a re-analysis of the deposited data

How the results depend on the processing

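Results were recomputed under 23 other settings, giving 974 log2 differences for 43 results, of which 838 kept direction and side of the threshold, 117 no longer passed, 12 newly passed and 7 changed sign. Some probe sets were not tested with the 40% filter or with 1 probe set per gene, as stated below. The cause of the other changes was not tested. For 4-week hearts against hearts before AAC, 2 member probe sets passed, and the count was 1 with no filter on low signals, quantile normalization, eBayes without a trend, the replicate block (Agtr1a lost, adjusted p 0.0542), 1 probe set per gene or adjustment within each chip. Within each chip the 1 was Gnb3 (0.0467), and both Agtr1a (0.0993) and Rgs2 1447830_s_at (0.0759) were lost. For Akt-on against 4-week hearts, 1 passed, and the count was 2 with a pseudocount of 64, adjustment within each chip, 1 probe set per gene or the atrial covariate, and by limma 0 with no filter (5 at an unadjusted p under 0.05) or only the 6 hearts compared (4). For Akt-on hearts against hearts before AAC, 4 passed, and the count was 2 with the 40% filter or 1 probe set per gene. Leaving out 1 heart gave 0 to 2, 0 to 2 and 3 to 5 in these comparisons, where the share of all probe sets that passed ran over 0.436% to 6.64%, 0.882% to 2.37% and 6.26% to 15.1%. With no filter those shares were 1.36%, 0.986% and 6.42%, against 4.43%, 2.54% and 13.4% as reported. Within each chip they were 6.11%, 2.95% and 13.6%, and with 1 probe set per gene 4.57%, 4.1% and 14.7%. For 4-week hearts against hearts before AAC they were 3.73% with quantile normalization and 2.76% without a trend. For Akt-on against 4-week hearts they were 2.59% with a pseudocount of 64, 2.87% with the atrial covariate and 0.967% with only the 6 hearts. For Akt-on hearts against hearts before AAC the share was 18.8% with the 40% filter.

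For pathway genes, 4-week hearts against hearts before AAC had 3 calls, and the count was 1 with no filter, 6 with adjustment within each chip, and by limma 0 without a trend, with the replicate block or with 4-week replicates 1 and 3 averaged (22, 23 and 21 at an unadjusted p under 0.05). Akt-on against 4-week hearts had 3, and the count was 1 with no filter, only the 6 hearts, the replicate block or the averaged replicates, 5 with 1 probe set per gene and 6 with the atrial covariate. Akt-on hearts against hearts before AAC had 14, and the count was 9 with no filter. Leaving out 1 heart gave 0 to 4, 1 to 2 and 7 to 15, beside the shares of all probe sets given above. With 4-week replicates 1 and 3 averaged, 1.84%, 1.37% and 14.6% of all probe sets passed.

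Leaving out the 4 atrium-rich hearts left 1 heart before AAC, assumed to vary like the others, and gave 0 calls by limma among members and pathway genes in all 3 comparisons, with 3, 4 and 3 members and 5, 13 and 17 pathway genes at an unadjusted p under 0.05. Over all probe sets, 5, 100 and 245 passed there.

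For Gnas 1450186_s_at the difference between 4-week hearts and hearts before AAC was 0.054 with quantile normalization, and that between Akt-on hearts and hearts before AAC was -0.0078 with the atrial covariate and ran from -0.11 to 0.066 when 1 heart was left out. For Agtr1a the difference between Akt-on hearts and hearts before AAC ran from -0.12 to 0.18 when 1 heart was left out. Without the 4 atrium-rich hearts, the difference between 4-week hearts and hearts before AAC was -0.16 for Adra1b and 0.032 for Adcy5 1447696_x_at. The replicate numbers did not pair the hearts: 18 correlations of same-numbered hearts ran from -0.239 to 0.143, 1 over 0.1, and the best match had the same number in 6 of 36. With the replicate block, member counts were 1, 1 and 4 and pathway counts 0, 1 and 11, and 2.07%, 1.59% and 11.1% of all probe sets passed. Dim probe sets such as Rgs2 1443250_at, at 10.6 in 1 heart before AAC, are limited by signal over background.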

Other observations

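Transcripts of enzymes that make noradrenaline, the ligand of the adrenergic receptors, were also measured, and which cells they came from was not tested. Dbh, the enzyme that makes noradrenaline from dopamine, gave 587, 679 and 614 in hearts before AAC, 938, 684 and 935 in 4-week hearts, and 581, 618 and 620.1 in Akt-on hearts. Th, the first enzyme of catecholamine synthesis, gave 198, 209 and 185 before AAC, 130.5, 198 and 131.5 at 4 weeks, and 235, 242 and 193 in Akt-on hearts. All 4-week hearts lay above the other hearts for Dbh, the lowest by a narrow margin (684 against 679), and 2 of them lay below all other hearts for Th. Ddc and Slc6a2, also measured, overlapped between the groups. Ddc ran over 44.8 to 102 before AAC, 17.1 to 123 at 4 weeks and 14.7 to 89.9 in Akt-on hearts. Slc6a2 ran over 240 to 296, 202 to 371 and 252 to 327. Dbh and Th were singled out after their values were seen. By limma, 0 of the 4 measured markers of sympathetic neurons and Schwann cells passed in any comparison; 1 had an unadjusted p under 0.05 for 4-week hearts against hearts before AAC, 2 for Akt-on against 4-week hearts and 0 for Akt-on hearts against hearts before AAC.

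Within the Akt-on hearts, the heart with the highest Akt1 signal, replicate 3 at 6535, also had the highest Adra1b signal at 389, and the others lay at 2614 and 305 (replicate 1) and 3762 and 299 (replicate 2). This match was noticed after the values were seen and was not tested. It was not particular to Adra1b. Replicate 3 was also the highest Akt-on heart for other member probe sets, such as Agtr1a (1083) and Adcy5 1447696_x_at (1137). Others, such as Adcy6 (1492) and Gnb3 (219), were highest in replicate 1.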
